A study of Mus musculus with 12 samples.

Results

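Messages for 10 semaphorins and semaphorin receptors were compared between an optogenetic and a wild-type muscle cell line. The set holds the secreted class 3 ligands Sema3a, Sema3b, Sema3c, Sema3d, Sema3e and Sema3f, the membrane-bound ligand Sema4d, and the receptors Nrp2, Plxna1 and Plxnb1. Each was taken by its symbol from the count table, where each symbol has 1 row, so the set is 10 of 56941 genes. C2C12 cells are mouse myoblasts, which fuse into myotubes when serum growth factors are withdrawn. The optogenetic line has the genotype ChR2::tdTomato, a light-gated cation channel joined to a red fluorescent protein, and is called ChR2 here. The control is the Wild-Type C2C12 line. Cells of both lines sat on a fibrin gel, 2 days in growth medium and 6 in differentiation medium. Aminocaproic acid was in both media, and horse serum and IGF-1 in the second. Each line gave 6 wells and each well 1 library. The labels name no illumination of these wells, no promoter for the transgene and no clone, nor do they state whether the wells were independent cultures. The p-values therefore weigh only the spread among wells.

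Semaphorins are guidance proteins first known for repelling or collapsing growing axon tips. Class 3 members are secreted and bind neuropilins, which signal through A-type plexins. Sema3e is an exception that can bind plexin D1 without a neuropilin. Sema4d sits in the membrane, can be shed, and binds plexin B1. Plexins act on small GTPases and on the actin and microtubule cytoskeleton. Muscle cells make several of these ligands, and Sema3a from muscle progenitors has been studied for its part in guiding motor axons.

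Of the class 3 genes, 4 lie on mouse chromosome 5 in the order Sema3d, Sema3a, Sema3e and Sema3c, and Sema3b and Sema3f lie near each other on chromosome 9 (RefSeq, GRCm38.p6). Nrp2 is on chromosome 1, Plxna1 on 6, Plxnb1 on 9 and Sema4d on 13. The promoters of 3 of the chromosome 5 genes are shown. Sema3c and Sema3e were called higher in ChR2 wells and Sema3d was not called in either direction. Sema3a was called higher too, and its promoter is not printed. The differences between these genes were not tested. Each sequence is the 250 bases before the RefSeq start, 5′ to 3′, with capitals for the E-box CANNTG, the motif read by myogenic and other helix-loop-helix factors.
Sema3c, chr5:17574566-17574815, GRCm38.p6, plus strand: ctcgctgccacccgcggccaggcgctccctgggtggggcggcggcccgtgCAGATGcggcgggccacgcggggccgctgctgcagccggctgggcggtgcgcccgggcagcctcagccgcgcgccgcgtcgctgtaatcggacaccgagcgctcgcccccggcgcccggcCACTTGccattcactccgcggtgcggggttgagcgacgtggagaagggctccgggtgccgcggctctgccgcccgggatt
Sema3e, chr5:14025026-14025275, GRCm38.p6, plus strand: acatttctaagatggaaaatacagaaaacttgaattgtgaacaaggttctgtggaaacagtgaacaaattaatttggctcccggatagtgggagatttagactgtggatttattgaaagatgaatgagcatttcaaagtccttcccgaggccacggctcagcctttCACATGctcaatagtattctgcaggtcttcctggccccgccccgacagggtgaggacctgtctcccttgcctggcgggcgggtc
Sema3d, chr5:12382916-12383165, GRCm38.p6, plus strand: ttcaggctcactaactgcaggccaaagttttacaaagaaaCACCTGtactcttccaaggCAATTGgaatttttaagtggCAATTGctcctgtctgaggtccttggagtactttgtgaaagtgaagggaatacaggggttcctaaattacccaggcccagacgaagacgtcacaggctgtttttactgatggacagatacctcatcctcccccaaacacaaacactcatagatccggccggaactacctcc
The Sema3c window held CAGATG and CACTTG, whose first bases lie 200 and 80 bases before the start. In Sema3e the match was CACATG, 84 bases before the start. The Sema3d window held CACCTG 210 and CAATTG 191 and 171 bases before the start. That of Sema3a, not printed, held CAGTTG 30 bases before the start. RefSeq promoters of 300 bases, 250 before and 50 after the start, were found for 7 of the 10 genes, 9 promoters in all. An E-box on either strand was present in 8 of these 9, against 72.3% of 32851 mouse promoters of the same length. Several of the 9 are promoters of Sema4d, and counted by gene 6 of 7 held an E-box. Its form CAGCTG, which overlaps the E-box pattern, was in 1 of 9 (a Sema4d promoter) against 16.3%. CATTCC, the motif of TEAD factors, was in 1 of 9 (Plxnb1) against 14.7%, and the AP-1 motif TGACTCA in 0 of 9 against 5.2%. Base composition differed as well, taken over the 300 bases, of which the 50 after the start are not printed. G and C made up 75.7% of the Sema3c promoter, 50.7% of that of Sema3e and 49.7% of that of Sema3d.

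Wild-type wells 2 and 5 stood apart, and each of the 10 genes was also tested without them. Libraries held 7388760 to 13628600 estimated counts in 10 wells, 1061070 in wild-type well 2 and 2809670 in well 5. The 7SL RNA, which has no poly(A) tail, took 24.8% and 8.37% of the counts of these wells and at most 0.0341% elsewhere. The 10 genes together had 353 estimated counts in well 2 and 1433 in well 5, against 3278 to 6541 in the others. Libraries were made from poly(A) RNA except for low-input samples, which had ribosomal RNA depleted and which the protocol does not name. Levels are CPM, counts relative to TMM-scaled library size, and fold changes are ChR2 over wild type from edgeR's quasi-likelihood test with Benjamini-Hochberg adjustment over all genes tested. Myotube markers were present in every well. Of 8 neuronal genes, Rbfox3 and Snap25 were at 0 in all 12. Mean levels in ChR2 and wild-type wells were 131 and 40.8 CPM for Stmn2, 67.9 and 58.0 for Nefl, and 30.4 and 31.8 for Nefm. Dcx, Syt1 and Elavl4 reached at most 1.17, 0.252 and 0.184 CPM. Of 6 endothelial genes, Tie1 and Emcn were at 0 in all 12, and Vwf had means of 2.32 and 2.95 CPM.

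Secreted class 3 messages were mostly higher in ChR2 wells, Sema4d was lower, and of the receptors Plxna1 was lower over 12 libraries and Nrp2 higher over 10. All 10 genes passed the filter on low counts. Over 12 libraries 6 were called, where 28.1% of all 13168 genes tested were. Of these 4 were higher, Sema3a, Sema3c, Sema3e and Sema3f, against 14% of all genes, and 2 lower, Sema4d and Plxna1, against 14.1%. Leaving out wild-type wells 2 and 5, 7 were called, where 35.2% of 13484 genes were: 6 higher, Sema3b and Nrp2 now among them, against 18.9%, and 1 lower, Sema4d, against 16.3%. Of the 6 called over 12 libraries, 5 were called again in the same direction. The median log2 fold change of the 10 genes was 0.43, beside -0.02 over all genes tested, and 0.58 beside -0.0014 without those wells. The genes were proposed with earlier results of these data known, so these shares describe the set and test nothing about it. In bulk RNA, fewer cells of a type cannot be told apart from less message per cell.

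**Figure D1:**
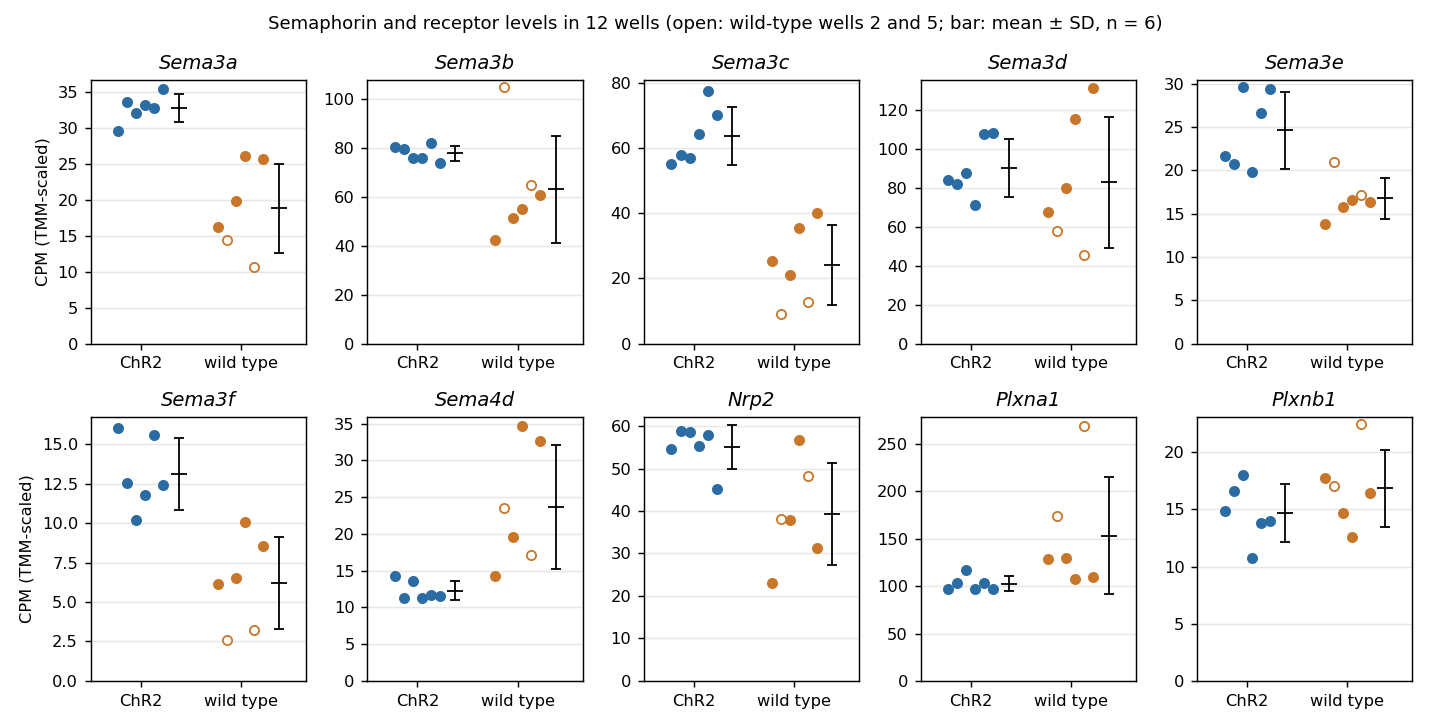
Each panel plots 1 gene, with CPM on TMM-scaled libraries on the vertical axis from 0 and the 6 wells of each line side by side. Open circles are wild-type wells 2 and 5 and bars give the mean ± SD (n = 6). Sema3a, Sema3c and Sema3f do not overlap between the lines, whereas Sema3d and Plxnb1 overlap widely.

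Sema3c, a ligand of both neuropilins known for its part in heart outflow development, showed the highest fold change of the set. Its level (ENSMUSG00000028780) ran from 55.3 to 77.6 CPM in ChR2 wells with a median of 61.1, and from 9.17 to 40.2 CPM in wild-type wells with a median of 23.3. No wild-type well reached the lowest ChR2 well. Means were 63.7 ± 8.80 and 24.1 ± 12.2 CPM (SD, n = 6), a log2 fold change of 1.29 (SE 0.24, 95% interval 0.78 to 1.80, adjusted p = 0.0015). Wild-type wells 2 and 5 were the lowest, at 9.17 and 12.8 CPM. Without them the log2 fold change was 1.07 (adjusted p = 0.000616), a 2.10-fold difference. The remaining wild-type wells were not alike: wells 1 and 3 stood at 25.4 and 21.2 CPM and wells 4 and 6 at 35.6 and 40.2 CPM.

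Sema3a, the founding repellent of the class and a ligand of neuropilin 1, was also separate between the lines. ChR2 wells (ENSMUSG00000028883) held 29.6 to 35.5 CPM with a median of 33.0, and wild-type wells 10.7 to 26.1 CPM with a median of 18.0. The lines did not overlap, and the ChR2 wells were close together (SD 1.95 CPM). ChR2 exceeded wild type by 0.74 on the log2 scale (SE 0.18, adjusted p = 0.00699), or by 0.59 (adjusted p = 0.00334) with wild-type wells 2 and 5 left out. Wild-type wells 1 and 3, at 16.2 and 19.8 CPM, lay below wells 4 and 6, at 26.1 and 25.7 CPM. The same split was seen for Sema3c.

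Sema3f, which binds neuropilin 2 by preference, was higher in ChR2 wells by a narrow gap between the nearest wells. Its level (ENSMUSG00000034684) was 10.2 to 16.1 CPM in ChR2 wells, median 12.5, and 2.62 to 10.1 CPM in wild-type wells, median 6.33. The highest wild-type well, well 4 at 10.05 CPM, lay just under the lowest ChR2 well, well 3 at 10.19 CPM. In log2 terms ChR2 was higher by 0.93 (SE 0.23, adjusted p = 0.0083), or by 0.76 (adjusted p = 0.00444) with wild-type wells 2 and 5 left out. Those wells rested on 2 and 9 estimated counts, the first of them under the floor of 3 counts used here.

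Of the 10 genes, 3 (Sema3a, Sema3c and Sema3f) thus showed no overlap between the lines over 12 wells, all with ChR2 higher. Over all genes tested 15.1% did not overlap, 8.57% with ChR2 higher and 6.52% with ChR2 lower. Without wild-type wells 2 and 5 there were 5, with Sema3b and Sema3e added, against 25% of all genes (13.7% higher and 11.2% lower).

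Sema3e, the plexin D1 ligand, was higher by a smaller amount and overlapped in 1 well. ChR2 wells (ENSMUSG00000063531) ran from 19.8 to 29.7 CPM, median 24.2, and wild-type wells from 13.9 to 21.0 CPM, median 16.4. Wild-type well 2 gave the 21.0 CPM, and the next wild-type well was at 17.1 CPM, below every ChR2 well. The log2 fold change was 0.60 (SE 0.14, adjusted p = 0.00644) over 12 libraries and 0.67 (adjusted p = 0.00208) without wells 2 and 5.

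Sema3b, a secreted ligand studied as a tumour suppressor, was not called over 12 libraries by edgeR and was called without wild-type well 2. ChR2 wells (ENSMUSG00000057969) lay between 73.8 and 82.0 CPM, median 77.8, the narrowest spread of the 10 genes relative to the mean. Wild-type wells ran from 42.3 to 105 CPM, median 57.9. Well 2 was the 105 CPM well, and the other 5 reached at most 64.9 CPM, below all ChR2 wells. The log2 fold change was 0.36 over 12 libraries (SE 0.17, adjusted p = 0.121). It was 0.53 without well 2 alone (adjusted p = 0.00329) and 0.59 without wells 2 and 5 (adjusted p = 0.000603). With sample quality weights, limma voom also called it over all 12 (0.57, adjusted p = 0.000232). RefSeq places the gene Lsmem2 over the same stretch, at 0 to 49 estimated counts per library where Sema3b had 80 to 1014, and the sources used here do not say whether counting used strand.

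Sema3d, a guidance ligand of axons and of heart and vessel precursors, did not pass the test in either set of libraries. ChR2 wells (ENSMUSG00000040254) held 70.9 to 108 CPM, median 85.9, and wild-type wells 45.3 to 131 CPM, median 73.7. The wild-type wells spanned the whole ChR2 range, with wells 4 and 6 above all ChR2 wells at 115 and 131 CPM. Its estimate was 0.10 (95% interval -0.38 to 0.57, adjusted p = 0.784), and -0.11 (95% interval -0.52 to 0.29, adjusted p = 0.67) without wild-type wells 2 and 5. The interval leaves room for a difference of either sign, and its upper bound lies below the estimates for Sema3a, Sema3c, Sema3e and Sema3f over 12 libraries; the difference between these genes was not tested.

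Other genes lie between these ligands. RefSeq lists 18 other protein-coding genes from Sema3d to Sema3c, of which 3 passed the filter on low counts over 12 libraries, chosen here by position. They were Pclo, which encodes a presynaptic scaffold (log2 fold change -0.05, adjusted p = 0.929), Cacna2d1, a calcium channel subunit gene (-0.02, adjusted p = 0.957), and the hepatocyte growth factor Hgf (-0.04, adjusted p = 0.946). Between Sema3b and Sema3f on chromosome 9, Gnai2, a G protein subunit gene, was at 0.18 (adjusted p = 0.386) and, with wild-type wells 2 and 5 left out, at 0.43 (adjusted p = 0.00396).

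Sema4d, the membrane-bound ligand of plexin B1 known from T cells and osteoclasts, was the member lower in ChR2 wells by the larger amount. ChR2 wells (ENSMUSG00000021451) stood close together at 11.3 to 14.3 CPM, median 11.6, and wild-type wells at 14.2 to 34.7 CPM, median 21.6. A single wild-type well, well 1 at 14.22 CPM, fell inside the ChR2 range, whose top was 14.29 CPM in well 1. Means were 12.3 ± 1.30 and 23.7 ± 8.39 CPM (SD, n = 6), a log2 fold change of -0.96 (SE 0.21, 95% interval -1.40 to -0.52, adjusted p = 0.00389). Without wild-type wells 2 and 5 the value was -1.03 (adjusted p = 0.00306), so wild-type wells held 2.04 times the ChR2 level. Wells 4 and 6, which were the nearest to ChR2 wells for Sema3a and Sema3c, were the farthest from them here, at 34.7 and 32.7 CPM against 14.2 and 19.6 CPM in wells 1 and 3. The 7 listed genes that mark leukocytes and osteoclasts were at low levels that also lay lower in ChR2 wells than in most wild-type wells. They summed to 4.401 to 8.65 CPM in ChR2 wells, to 9.24 to 13.1 CPM in the 4 wild-type wells other than 2 and 5, and to 5.24 and 6.07 CPM in those. Of these genes 2 were tested, and Acp5 was lower without wild-type wells 2 and 5 (-0.87, adjusted p = 0.0249) but not over 12 libraries (adjusted p = 0.0979). The highest well held 8.46 CPM for Cd68, 4.73 for Acp5, 1.71 for Ctsk and 1.31 for Itgam. Csf1r reached at most 0.720 CPM, Cd3e 0.0807 and Ptprc 0.0733. Whether any leukocytes or osteoclasts were present, or bear on the Sema4d result, was not tested.

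**Figure D2:**
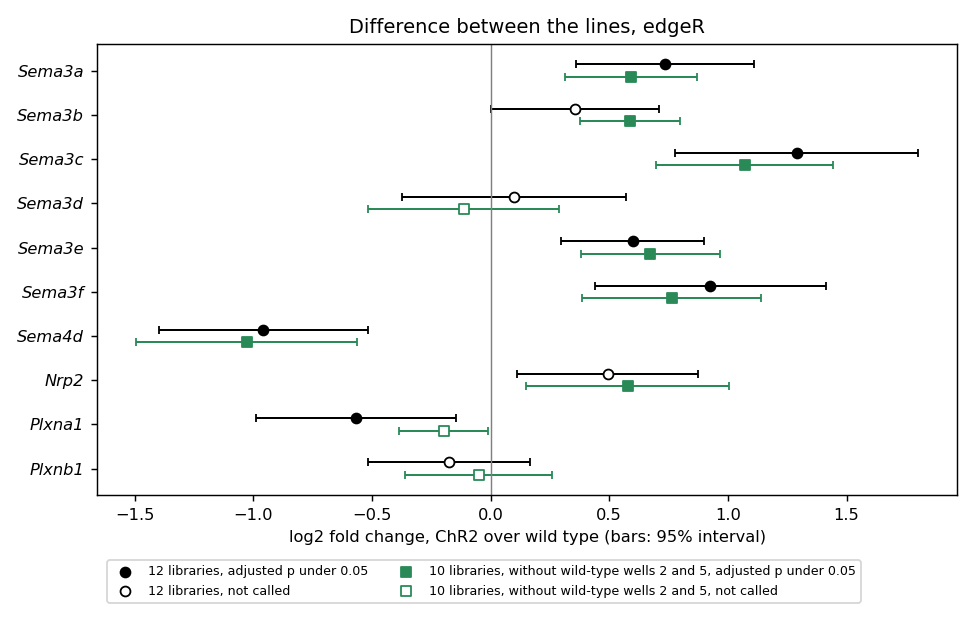
Points are log2 fold changes of ChR2 over wild type with 95% intervals from edgeR, for 12 libraries (black circles) and for 10 libraries without wild-type wells 2 and 5 (green squares), filled where the adjusted p is under 0.05. Sema3b and Nrp2 are filled for 10 libraries only and Plxna1 for 12 libraries only.

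Nrp2, the neuropilin that Sema3f and Sema3c bind, lay at the threshold. ChR2 wells (ENSMUSG00000025969) held 45.2 to 58.9 CPM, median 56.6, and wild-type wells 23.1 to 56.8 CPM, median 38.0. Wild-type well 4, at 56.8 CPM, was inside the ChR2 range, and the lowest ChR2 well was well 6. On the log2 scale the difference was 0.49 (SE 0.18, adjusted p = 0.0514), 0.58 without wild-type wells 2 and 5 (adjusted p = 0.0386) and 0.65 without well 4 alone (adjusted p = 0.00936). It also passed without well 5 alone (adjusted p = 0.0359) and missed the threshold when any 1 of the other 10 wells was left out (adjusted p up to 0.0938). Without wild-type wells 2, 5 and 6 together it missed as well (0.51, adjusted p = 0.0957).

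Plxna1, an A-type plexin that carries the class 3 signal into the cell, was called lower over 12 libraries, where 2 wild-type wells were far above the rest. ChR2 wells (ENSMUSG00000030084) held 96.5 to 117 CPM, median 100.2, and wild-type wells 107 to 269 CPM, median 129. Wild-type wells 5 and 2 were the highest, at 269 and 174 CPM, and the other 4 reached at most 129.8 CPM. The log2 fold change was -0.57 (SE 0.20, adjusted p = 0.0434), and -0.20 (95% interval -0.39 to -0.01, adjusted p = 0.0934) without both wells. The call was also lost when any 1 ChR2 well or any 1 of wild-type wells 2, 3 and 5 was dropped, with adjusted p up to 0.0816. In these fits the estimate was -0.51 to -0.61, except without well 5, where it was -0.32.

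Plxnb1, the receptor of Sema4d, did not pass the test. ChR2 wells (ENSMUSG00000053646) ran from 10.7 to 18.0 CPM, median 14.4, and wild-type wells from 12.63 to 22.5 CPM, median 16.7. The lines overlapped in most wells. Its estimate was -0.18 (95% interval -0.52 to 0.17, adjusted p = 0.443), and -0.05 (95% interval -0.36 to 0.26, adjusted p = 0.817) without wild-type wells 2 and 5. The Sema4d estimate of -0.96 lies below both lower bounds; the difference between the genes was not tested.

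Marker genes of several cell types differed between the lines as well. All 10 markers of cycling cells, such as Mki67 and Top2a, were higher in ChR2 wells, with summed levels of 749 to 1002 CPM against 121 to 552 CPM in wild-type wells. Over all genes tested 14% were higher and 14.1% lower, or 18.9% and 16.3% without wild-type wells 2 and 5. Of 10 fibroblast and mesenchymal markers 8 were tested and 4 were higher, Col1a2, Col3a1, Mfap5 and Fbln1. Dcn (log2 fold change 0.62), Postn (0.36), Col1a1 (-0.19) and Pdgfra (-0.27) were not called. The summed level of the 10 was 4092 to 4864 CPM in ChR2 and 1140 to 4384 CPM in wild-type wells. Thy1 and Lum stayed below the filter. Of 10 myotube markers 2 were lower, Myog and Ttn. Without wild-type wells 2 and 5, 4 were lower, with Myh8 (-1.25, adjusted p = 0.0392) and Mymk (-0.62, adjusted p = 0.00121) added. Myh3 (0.58), Ckm (0.50), Tnnt3 (0.41) and Acta1 (0.19) had log2 fold changes above 0 over 12 libraries and were not called. Actn2 (-0.38) and Tnni1 (-0.21) lay below 0 and were not called either. The summed levels of the 10 overlapped (10948 to 13626 against 9484 to 24570 CPM). Among 8 neuronal genes 3 were tested. Stmn2 was higher, while Nefl (log2 fold change 0.24) and Nefm (-0.09) were not called. The 8 summed to 199 to 274 against 82.5 to 212 CPM. Of 6 Schwann and glial markers 2 were tested and Erbb3 was lower (45.7 to 64.3 against 99.5 to 143 CPM). Endothelial markers summed to at most 4.77 CPM. Counts for the cycling, fibroblast, neuronal and Schwann lists were the same without wild-type wells 2 and 5. The part of these marker differences in the semaphorin results was not tested.

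Levels of different genes can be set side by side only per length, for which the authors' TPM were used. In wild-type wells 2 and 5, 7SL RNA alone took 72.0% and 50.8% of all TPM, so absolute TPM are given for the other 10 wells. Sema3b was the most abundant message of the set per length in both lines, at 36.0 ± 3.63 TPM in ChR2 (SD, n = 6) and 25.8 ± 3.47 TPM in wild-type wells (SD, n = 4). In ChR2 wells it was followed by Sema3d at 18.6 ± 3.08, Plxna1 at 15.9 ± 2.48 and Sema3c at 15.4 ± 1.61 TPM, which overlapped one another. Nrp2 at 11.04 ± 1.64 TPM came next and lay below Sema3c in all 6 wells. Sema3a (8.90 TPM), Sema4d (7.76), Sema3f (7.35), Sema3e (4.94) and Plxnb1 (2.82) closed the order, each overlapping its neighbour in range. Compared within wells, Sema3e lay above Plxnb1 in all 6. The neighbouring pairs from Nrp2 to Sema3e kept their order in 3 to 5 wells. In the 4 wild-type wells Plxna1 (21.6 ± 4.31 TPM) and Sema3d (21.5 ± 5.68) followed Sema3b, with Sema4d next at 16.1 ± 5.77 TPM, whereas Sema3c stood at 7.55 ± 1.77 TPM, below Nrp2. Every neighbouring pair in the wild-type order overlapped in range. Compared within wells, Sema3d lay above Sema4d, Sema4d above Nrp2, Sema3a above Sema3f and Sema3f above Sema3e in all 4. The other pairs kept their order in 2 or 3 of the 4. Plxnb1 was last in both lines.

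Shares within a well are not changed by a scaling common to all its genes. TPM relative to CPM also differed by gene between wells. In wild-type well 2 Sema3a had 14.4 CPM and 0.672 TPM, and Sema3c 9.17 CPM and 1.02 TPM. In well 1 they had 16.2 CPM and 4.42 TPM, and 25.4 CPM and 6.56 TPM. Sema3a to Sema3f in well 2 held 2 (Sema3f) to 80 (Sema3b) estimated counts each. Shares of wells 2 and 5 may thus not compare with the others. Sema3c made up 15.6% to 18.4% of the summed TPM of Sema3a to Sema3f in ChR2 wells and 5.35% to 12.2% in wild-type wells, with no overlap. Its mean share was 16.9% ± 1.20 against 9.11% ± 3.09 (SD, n = 6), or 10.96% ± 1.51 in the 4 wild-type wells other than 2 and 5. Sema3d made up 17.4% to 23.3% in ChR2 wells and 28.2% to 33.3% in those 4 wild-type wells, while wild-type wells 2 and 5 were at 26.9% and 19.4%. Sema3b was the leading ligand in every well, with 35.4% to 42.0% in ChR2 and 34.0% to 60.9% in wild-type wells. Its highest shares, 55.2% and 60.9%, were those of wild-type wells 2 and 5. These shares are descriptions and were not tested.

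**Figure D3:**
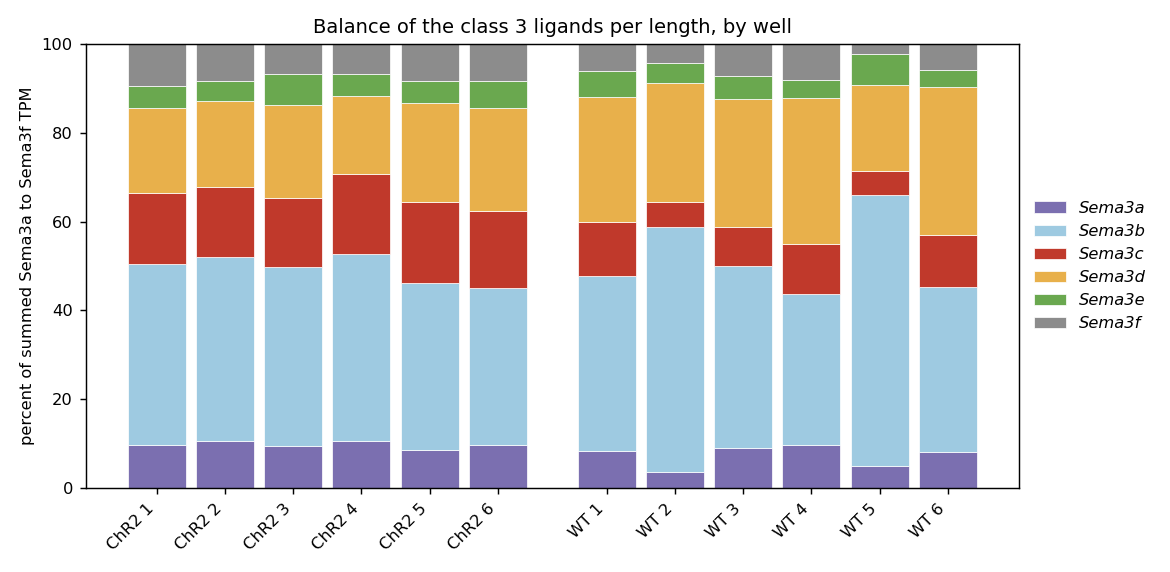
Stacked bars give the percent of the summed TPM of 6 class 3 ligands for each of 12 wells, on a vertical axis from 0 to 100. The Sema3c band is 15.6% to 18.4% in ChR2 wells and at most 12.2% in wild-type wells, and Sema3b is the widest band in every well.

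Receptor shares overlapped between the lines. Nrp2 held 42.4% to 47.8% of the summed neuropilin TPM in ChR2 and 43.8% to 51.9% in wild-type wells. Plxna1 held 41.0% to 52.5% of the A-type plexin TPM in ChR2 and 51.0% to 75.1% in wild-type wells, or up to 63.1% without wells 2 and 5. Plxnb1 was at 1.76% to 4.01% of the B-type plexin TPM in ChR2 and 2.48% to 7.74% in wild-type wells. Plxnb2, another B-type plexin named after its values were seen, did not pass (361 ± 24.1 against 351 ± 72.5 CPM, adjusted p = 0.848).

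Other genes of the pathway were taken from lists set by function. Of 67 genes 54 passed the filter, and 15 were higher and 7 lower in ChR2 wells, or 23 and 8 without wild-type wells 2 and 5. Over all genes tested 14% were higher and 14.1% lower, or 18.9% and 16.3% without those wells, so the lower counts lie near the share over all genes. Of the 22 called over 12 libraries, 21 were called again in the same direction. The median log2 fold change over the 54 genes was 0.08, or 0.19 without those wells. Levels below are means ± SD (n = 6), ChR2 first.

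Among the other semaphorins, 2 of 11 tested were higher and 1 lower, where 14% and 14.1% of all genes tested were. Sema5a, a membrane semaphorin with thrombospondin repeats, was at 17.3 ± 3.54 against 6.65 ± 4.09 CPM (log2 fold change 1.24, adjusted p = 0.00813), and Sema4g, a membrane semaphorin, at 3.45 ± 0.855 against 1.39 ± 0.794 CPM (1.11, adjusted p = 0.01). Neither overlapped between the lines, as was so for 8.57% of all genes tested with ChR2 higher. Sema6a, a membrane semaphorin that binds A-type plexins, was lower at 83.1 ± 9.34 against 124 ± 27.7 CPM (log2 fold change -0.57, adjusted p = 0.0104). Without wild-type wells 2 and 5, Sema4f was also higher (1.01, adjusted p = 0.00165) and Sema3g, the remaining class 3 gene, lower (-0.90, adjusted p = 0.0289). Over 12 libraries Sema3g stood at 1.25 ± 0.365 against 1.99 ± 1.15 CPM (-0.85, adjusted p = 0.0555).

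Of the other neuropilins and plexins 4 of 7 tested were higher and 0 lower by edgeR, both over 12 and over 10 libraries. At an unadjusted p under 0.05, 0 were lower. Of all genes tested 14% were higher and 14.1% lower over 12 libraries, and 18.9% and 16.3% over 10. Nrp1, the receptor of Sema3a, was at 35.9 ± 2.46 against 23.7 ± 7.07 CPM (log2 fold change 0.61, adjusted p = 0.0128). Plxna4, which pairs with neuropilin 1 in axons, was at 8.59 ± 0.512 against 2.83 ± 1.57 CPM (1.62, adjusted p = 0.00401), and Plxna3 at 34.1 ± 4.02 against 21.2 ± 4.45 CPM (0.64, adjusted p = 0.00389). Plxnd1, the receptor of Sema3e, was at 117 ± 8.95 against 88.2 ± 19.2 CPM (0.41, adjusted p = 0.0444). Plxna2, named after its values were seen, was not called (-0.21, adjusted p = 0.24). The A-type plexins thus had log2 fold changes from -0.57 for Plxna1 to 1.62 for Plxna4.

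Of 11 co-receptors and partners 5 were tested, with 1 higher and 1 lower, or 1 and 2 without wild-type wells 2 and 5. Ranbp9, a plexin-binding scaffold, was added there (-0.38, adjusted p = 0.0123). The shares over all genes tested were 14% and 14.1%, or 18.9% and 16.3% without those wells. L1cam, an adhesion molecule that joins neuropilin 1 in Sema3a reception, was higher at 55.9 ± 6.15 against 31.1 ± 11.3 CPM (log2 fold change 0.80, adjusted p = 0.00454). Erbb2, a receptor kinase that associates with B-type plexins, was lower at 48.4 ± 5.05 against 96.9 ± 32.9 CPM (-0.96, adjusted p = 0.00143).

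Intracellular effectors were higher for 7 and lower for 3 of 25 tested, and for 14 and 3 without wild-type wells 2 and 5. Beside these stand 14% and 14.1% of all genes tested, and 18.9% and 16.3% without those wells. Pak1, the kinase downstream of Rac, was at 73.5 ± 7.44 against 38.1 ± 5.47 CPM (log2 fold change 0.97, adjusted p = 9.24e-05), and Farp1, of a family of plexin-bound exchange factors, at 61.1 ± 4.09 against 35.8 ± 7.09 CPM (0.77, adjusted p = 0.000652). Mical2, an actin-oxidising enzyme (0.92), Dpysl3, of the collapsin response mediator family (0.75), and the GTPases Rnd1 (0.63), Rras (0.52) and Rac1 (0.41) were higher too on the log2 scale. Rhod, a GTPase that binds plexins, was lower at 22.8 ± 4.20 against 44.3 ± 10.6 CPM (-0.93, adjusted p = 0.00155), as were Mical3 (-0.71) and Arhgef12 (-0.56), an exchange factor bound by B-type plexins. Without wild-type wells 2 and 5 these last genes were closer to the wild type, at -0.34 and -0.24, and still lower. Dpysl2, the mediator first tied to Sema3a, turned sign with the libraries, at -0.50 over 12 (adjusted p = 0.515) and 0.82 over 10 (adjusted p = 3.48e-05).

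Of 6 processing enzymes tested, 1 was higher and 2 lower, where 14% and 14.1% of all genes tested were. Mmp14, a membrane metalloprotease, was higher (log2 fold change 0.54, adjusted p = 0.00635) and the proprotein convertase Pcsk7 lower (-0.60, adjusted p = 0.00836). Furin, which cleaves class 3 semaphorins, was lower over 12 libraries (-0.71, adjusted p = 0.0359) and not called without wild-type wells 2 and 5 (-0.24, adjusted p = 0.129).

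**Figure D4:**
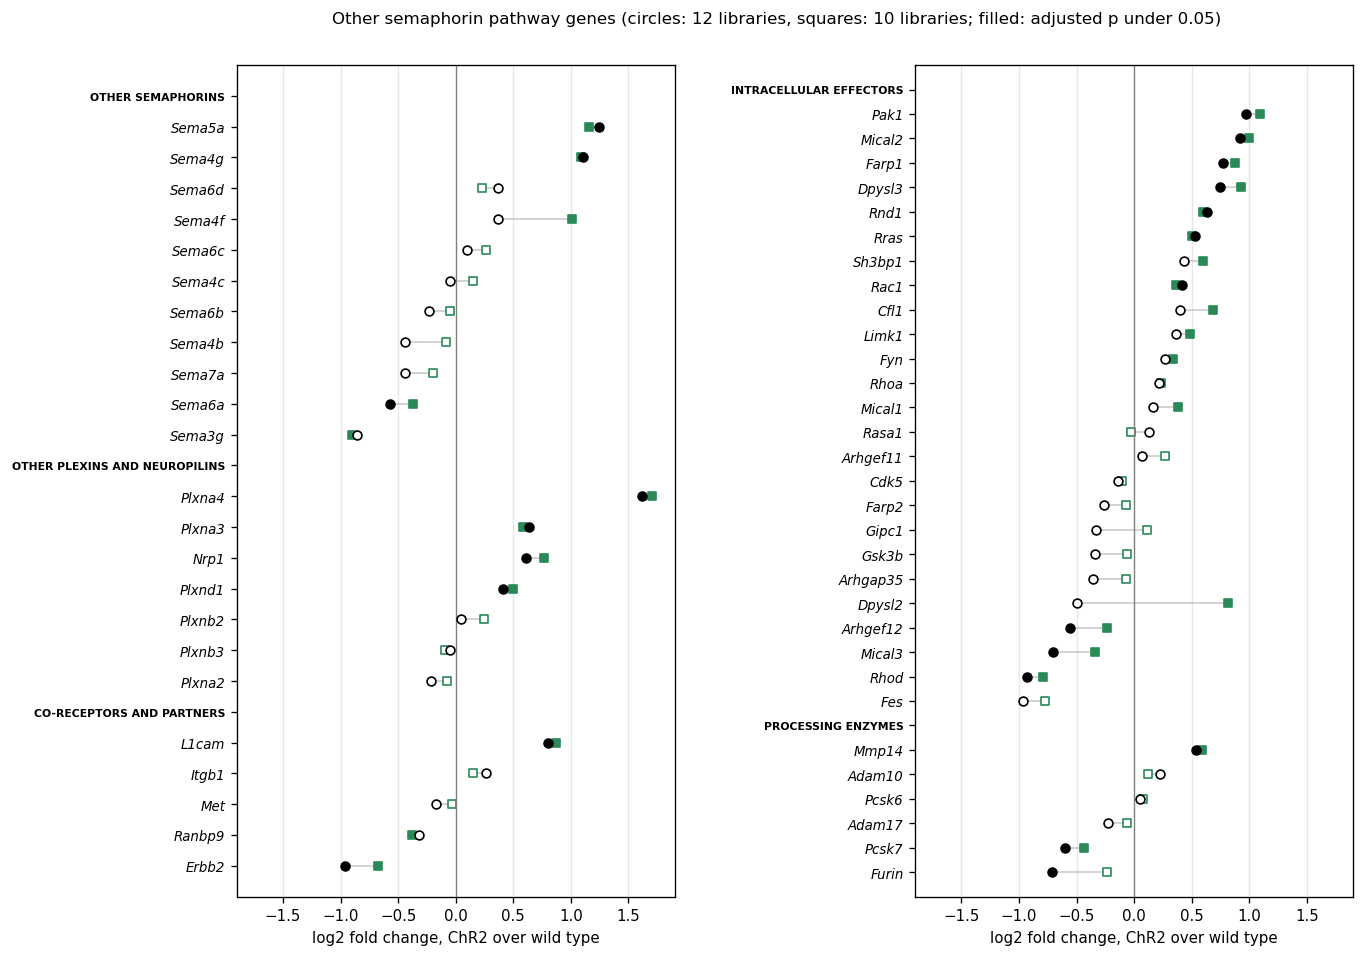
Each row is 1 of 54 tested pathway genes, grouped by list, with the log2 fold change of ChR2 over wild type on the horizontal axis, circles for 12 libraries and squares for 10, filled where the adjusted p is under 0.05. Filled symbols lie on both sides of 0 in all lists but the plexins and neuropilins, and Dpysl2 shows the widest gap between the fits.

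The gene nearest in pattern to a member was sought among 10525 genes over the 10 wells other than wild-type wells 2 and 5, by the root mean square difference of centred log2 CPM. Sema3c was nearest to the selenoprotein gene Selenow, at a distance of 0.13 where the median gene was at 0.64. Sema4d was nearest to Lrrn1, of a leucine-rich repeat membrane family (0.17, median 0.61), and Sema3a to Dagla, a diacylglycerol lipase gene (0.09, median 0.42). Further nearest genes were Hspa12a for Sema3b, Mmp11 for Sema3e, Kctd15 for Sema3f, Txndc16 for Nrp2, Ncdn for Plxna1 and Tyk2 for Plxnb1, at 0.06 to 0.12. The distances include the difference between the lines and are descriptions only.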

How the data were processed

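Libraries were made from poly(A)-selected RNA, or from ribosomal RNA-depleted RNA for unnamed low-input samples, with 14 PCR cycles for the former, and read as pairs of 50 bases, per the labels' protocols. The authors deposited estimated counts per gene, which need not be whole, and TPM, both for 56941 genes in 12 libraries. Named in the submitters' processing notes are Salmon, STAR, BWA 0.7.12-r1039 and bedtools 2.25.0, and mm10, hg19 and GRCm39, with no role for each. Wells were grouped by genotype and numbered by title. Every per-sample column was used.

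Estimated counts were rounded, filtered by filterByExpr (minimum count 10), scaled by TMM and tested with edgeR 4.0.16 in R 4.3.3 (robust quasi-likelihood, genotype as the term, adjusted p under 0.05). SE is the log2 fold change over the root of its F, and 95% intervals use the fit's degrees of freedom. Other fits used DESeq2 1.42.0 and limma 3.58.1, and figures matplotlib 3.10.9. The fit was tested on simulated data. No same-line pair agreed within sampling noise (lowest chi-square per degree of freedom 5.09). Reads were amplified and carry no molecular identifiers, so floors describe counting error alone. The labels' shared replicate numbers did not pair the wells.

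The members and lists were chosen with earlier results of these data known, as was the setting without wild-type wells 2 and 5. All 10 members were to be named, with called genes of the pathway lists and the 1 gene nearest in pattern to each member (mean of at least 5 CPM, prior count 2, established symbol). The nearest gene of Sema3d is not reported here. Promoter sequences are RefSeq's and were matched by symbol.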

Additional observations from a re-analysis of the deposited data

Results flagged for a closer look

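A well far from the rest of its line was found in 3 of 38 groups of 6 wells examined (10 genes in CPM and 9 shares of TPM, each in both lines), and chance flags about 1 group in 20. Sema3b stood at 105 CPM in wild-type well 2, where the other wild-type wells held 42.3 to 64.9 CPM. Nrp2 stood at 45.2 CPM in ChR2 well 6, where the other ChR2 wells held 54.6 to 58.9 CPM. Plxna1 stood at 117 CPM in ChR2 well 3, where the others held 96.5 to 103 CPM.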

How the results depend on the processing

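Of 19 settings other than leaving out 1 library, the number of members higher was within 1.5 times of the 4 reported in 16. The number lower was within 1.5 times of the 2 reported in 6. Among these settings, a filter of at least 1 CPM in 6 libraries kept 13168 genes and gave the values of the main fit. It is thus no separate check. Leaving out 1 library at a time gave 4 to 5 members higher and 1 to 2 lower, 12 to 19 pathway genes higher and 5 to 9 lower, and 1497 to 2120 genes higher and 1284 to 2127 lower of all tested. Sema3a, Sema3c, Sema3e, Sema3f and Sema4d were called in each of these 12 fits. Sema3b passed without wild-type well 2 (0.53), and Nrp2 without well 4 or well 5 (0.65 and 0.56). Nrp2 also passed with DESeq2's size factors (adjusted p = 0.0472), upper-quartile scaling (0.0355), the DESeq2 Wald test (0.0324), limma voom (0.00618) and the tailless and mitochondrial RNA removed (0.0489). It failed without each of the other 10 wells, on log2(TPM + 1) without wild-type wells 2 and 5 (0.0657) and without wells 2, 5 and 6 (0.0957). Nrp2 was also not called with no filter, on the deposited TPM over 12 libraries, or on the rescaled TPM described below. Across the 31 settings other than the main fit its log2 fold change ran from 0.31 to 0.90, with adjusted p up to 0.347.

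Members lower numbered 1 with upper-quartile scaling, without wild-type wells 2 and 5, with a covariate for those wells, and, chosen after the data were seen, by DESeq2 without them, without a further well 4 or 6, and on both TPM fits described below that set their RNA aside. Pathway genes higher numbered 23 without wild-type wells 2 and 5, 24 by DESeq2 on those 10 libraries and 23 without well 4 as well. Limma voom with quality weights called 2781 of all genes higher. The deposited TPM are compressed in wild-type wells 2 and 5, where 7SL RNA takes a large share, and the median log2 fold change of all genes was 0.35 on log2(TPM + 1) and 0.43 on log2(TPM + 0.1). The log2(TPM + 1) fit by limma gave 592 genes higher and 28 lower (1838 and 1863 by edgeR on counts), log2(TPM + 0.1) gave 254 and 17, and log2(TPM + 1) without a filter 402 and 23. Members higher then numbered 1 (Sema3c), 0 and 0, and lower 0 in all 3. At an unadjusted p under 0.05, 6 members were higher and 0 lower in each of these limma fits. Pathway genes higher numbered 2, 1 and 2, and lower 0 in all 3 (0 at an unadjusted p under 0.05). With tailless and mitochondrial RNA removed and TPM rescaled, 832 genes, 3 members and 1 pathway gene were higher, and 1 member and 4 pathway genes lower. On log2(TPM + 1) without wild-type wells 2 and 5, 1 member and 4 pathway genes were lower.

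With the replicate block, 1171 of all genes were lower beside 1470 higher, and 1195 beside 1813 without wild-type wells 2 and 5. Nrp2 passed over 12 libraries (0.54, adjusted p = 0.0451) and lost its call over 10 (0.60, adjusted p = 0.0591), and Plxna1 did not (-0.50, adjusted p = 0.072). Members lower numbered 1, and 0 without those wells (1 at an unadjusted p under 0.05 by edgeR), where Sema4d was at -0.89 (adjusted p = 0.0685). Same-numbered wells did not deviate together (r from -0.14 to 0.10, 0 of 6 pairs over 0.1), and 1 of 12 wells correlated best with its own number.

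Sema3d, never called, changed sign to -0.11 without wild-type wells 2 and 5, -0.11 with the block as well, -0.13 with the covariate and -0.035 without well 5; leaving out 1 library at a time gave -0.035 to 0.273. Added after the data were seen, it was at -0.18 on TPM without both wells, -0.13 on rescaled TPM, -0.13 by DESeq2 without both wells and -0.032 without well 4 too. Plxnb1 turned to 0.10, 0.19 and 0.10 on the 3 deposited TPM scales. The cause of these changes was not tested. Depth limits Sema3f most, at 2 estimated counts in wild-type well 2.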
